A study of Rattus norvegicus with 6 samples.

Results

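This is an account of genes that carry calcium and phosphate across the gut wall, or that set how much is carried, in the ileum of obese rats after gut bypass surgery. The members were listed by symbol for their known roles, with earlier results of these data known, and a member counts as present where the array annotation gives a row that symbol alone. Of 8 members named, 7 were present among the 14506 genes tested, each by a single row. They are S100g, Trpv6 and Atp2b1 for calcium, Vdr and Cyp24a1 for vitamin D, and Slc34a2 and Slc20a1 for phosphate. Trpm6, the magnesium entry channel, was not analysed here.

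Ileum RNA of 6 rats was measured, 1 Affymetrix array per rat. In 3 rats a duodenum-jejunum bypass (DJB) tied off the duodenum near its start, cut the gut 10 cm past the ligament of Treitz and joined the lower limb to the duodenum, so that bile and pancreatic juice met the food further down. The other 3 rats had a sham operation, in which the cuts were rejoined and food kept its usual course. All 6 rats were Zucker fa/fa, a strain whose leptin receptor is defective, were 20 weeks old at surgery, and were killed 14 days later. Both groups therefore carry the same obesity genotype, no lean rats are included, and the labels do not say which stretch of the ileum was taken.

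Calcium crosses the intestinal wall in 2 ways. In the route through the cell it enters at the brush border through the channel TRPV6, is ferried by the small binding protein calbindin-D9k and is pumped out on the blood side by PMCA1. In the route between cells it passes through tight junctions, where claudin-2 and a few of its relatives form pores for cations. The active form of vitamin D, acting through its receptor VDR, raises the genes of the cellular route and also Cyp24a1, whose enzyme breaks the hormone down. The cellular route is best developed in the duodenum, while much of the daily calcium is absorbed in the longer lower gut. Phosphate enters through sodium-coupled carriers, of which NaPi-IIb, made from Slc34a2, is the classical one of the small intestine, and PiT-1, made from Slc20a1, is a widely expressed relative.

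After the bypass, the ileum carried less transcript of calbindin-D9k and more of claudin-2. S100g, which encodes calbindin-D9k, fell 2.14-fold, while the other 6 members measured did not pass the test. In a list of 28 other calcium genes, Cldn2 rose 2.10-fold and was the only gene past the threshold. None of the other phosphate or magnesium genes measured passed, where 0.772% of all genes tested did. Values are log2 expression levels after RMA, a difference of 1 on that scale is a doubling, and differences are DJB minus sham with the standard error (SE) of the limma fit. A gene is said to rise or fall where its adjusted p over all 14506 genes was under 0.05.

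**Figure D1:**
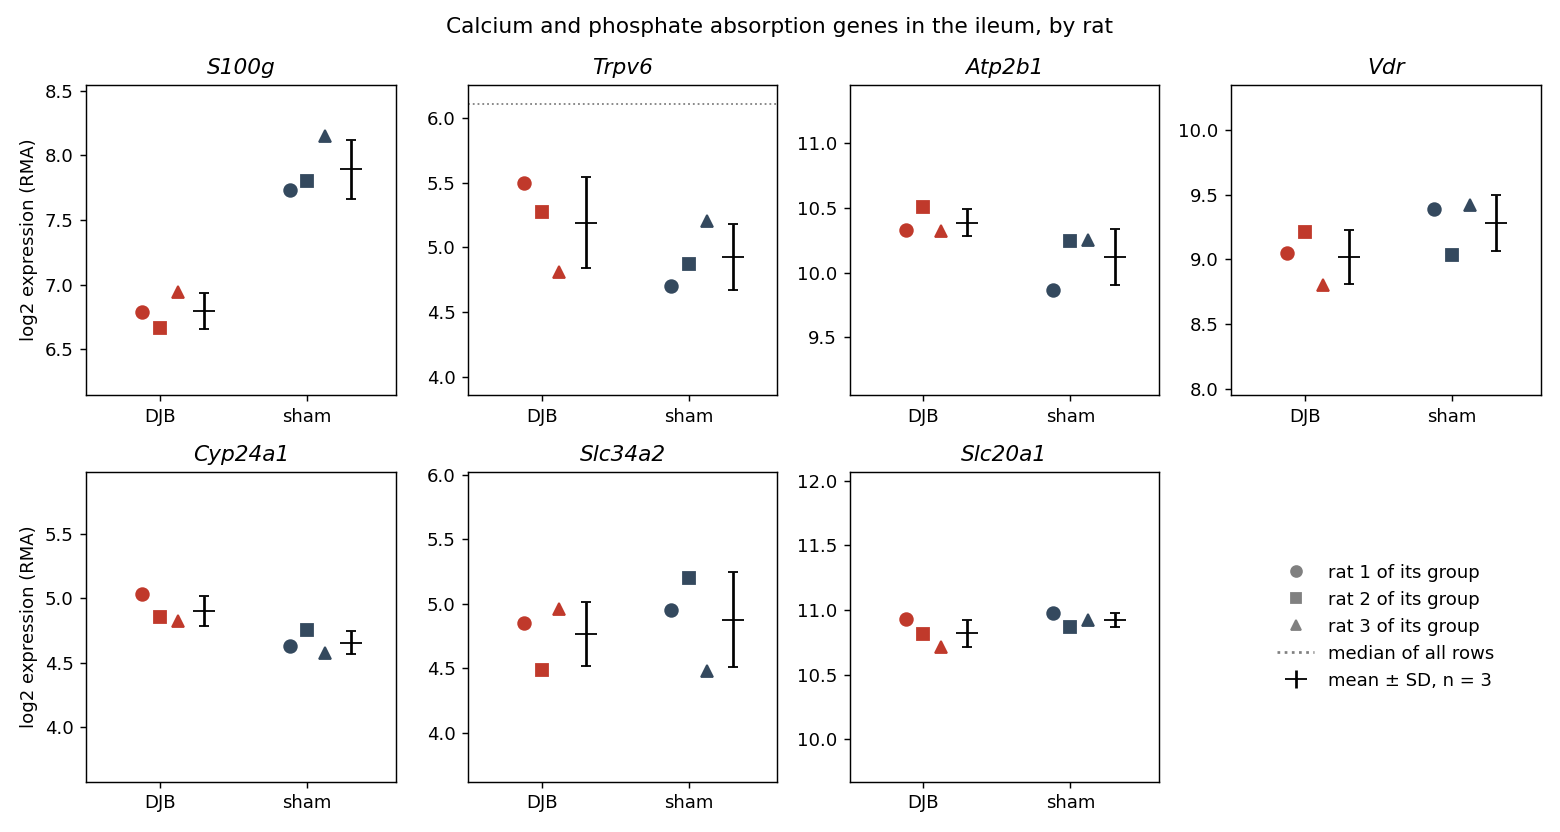
Log2 expression of the 7 members measured, by rat, with DJB left of sham in each panel, every panel spanning the same range of log2 units, and the bar giving the mean and SD of 3 rats. The S100g values of the DJB rats, 6.67 to 6.94, all lie under those of the sham rats, 7.73 to 8.15, and the dotted line in the Trpv6 panel is the median of all rows, 6.11.

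S100g levels were 6.79, 6.67 and 6.94 in the DJB rats, against 7.73, 7.80 and 8.15 in the sham rats. Every DJB value lay below every sham value, and the gap between the groups was wider than the range within either. The means were 6.80 ± 0.14 in DJB and 7.89 ± 0.23 in sham (SD, n = 3 each), a difference of -1.10 ± 0.13 (SE) with a 95% interval of -1.40 to -0.80. The limma adjusted p was 0.00938, and by unadjusted p S100g stood at rank 26 of the 14506 genes. The exact permutation test over the 6 rats, two-sided, gave p = 0.1, the smallest that 3 against 3 rats allow. With 1 array left out at a time the adjusted p of the limma fit ran from 0.0153 to 0.0496, the highest of these without DJB 2.

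Trpv6, the entry channel, had levels of 5.50, 5.27 and 4.81 in the DJB rats, against 4.70, 4.87 and 5.20 in the sham rats. The groups overlapped, since DJB 3 lay below sham 2 and sham 3. The difference of 0.27 ± 0.19 (SE) did not pass (limma adjusted p = 0.558), and its 95% interval ran from 0.899-fold to 1.62-fold. All 6 values lay under 6.11, the median of all rows, where summarised array values understate folds. A fall of Trpv6 as large as that of S100g lies outside the interval, subject to that limit.

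Atp2b1, which encodes the calcium pump PMCA1, had levels of 10.33, 10.51 and 10.32 in the DJB rats, against 9.87, 10.24 and 10.25 in the sham rats. The DJB values were all higher, but by only 0.07 between the lowest DJB rat and the highest sham rat, and sham 1 lay apart from its group. The difference was 0.27 ± 0.13 (SE, limma adjusted p = 0.384), with a 95% interval of 0.986-fold to 1.47-fold. It was 0.14 without sham 1. Of the channel, the binding protein and the pump of the cellular route, only the binding protein gene, S100g, thus fell. The differences of Trpv6 and Atp2b1 were both higher in DJB and did not pass.

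Vdr, the vitamin D receptor gene, had levels of 9.05, 9.21 and 8.80 in the DJB rats, against 9.39, 9.03 and 9.42 in the sham rats. The groups overlapped through sham 2, which lay below DJB 1 and DJB 2. The difference of -0.26 ± 0.14 (SE) did not pass (limma adjusted p = 0.446), and its 95% interval was 0.667-fold to 1.04-fold. Without sham 2 it was -0.385, and it did not pass there either.

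Cyp24a1, the vitamin D 24-hydroxylase gene that vitamin D itself induces, had levels of 5.03, 4.85 and 4.82 in the DJB rats, against 4.63, 4.76 and 4.58 in the sham rats. The DJB values were all higher by a narrow margin. The difference of 0.25 ± 0.10 (SE) had an unadjusted p of 0.0391 and did not pass over all genes (limma adjusted p = 0.321). Its 95% interval ran from 1.01-fold to 1.39-fold, and the levels lay under the median of all rows in every rat. S100g and Cyp24a1 are both known targets of the vitamin D receptor in rat intestine. Their differences lay in opposite directions, -1.10 for S100g, which passed the threshold, and 0.25 for Cyp24a1, which did not. The part of vitamin D in either difference was not tested.

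Both phosphate carriers differed little. Slc34a2 had levels of 4.85, 4.49 and 4.96 in the DJB rats, against 4.95, 5.20 and 4.48 in the sham rats, all of them under the median of all rows. The DJB values all lay within the range of the sham values. The difference of -0.11 ± 0.19 (SE, limma adjusted p = 0.839) turned positive without DJB 2 (0.031) or without sham 2 (0.052). Slc20a1 had levels of 10.93, 10.82 and 10.71 in the DJB rats, against 10.98, 10.87 and 10.92 in the sham rats. Its difference was -0.10 ± 0.10 (SE, limma adjusted p = 0.680). The 95% intervals were 0.689-fold to 1.25-fold for Slc34a2 and 0.799-fold to 1.08-fold for Slc20a1. The interval of Slc20a1 leaves out a change of the size seen for S100g in either direction, and that of Slc34a2 does so subject to the limit given for dim rows.

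Of the 7 members, 0 rose and 1 fell, where 0.772% of all genes tested passed (0.393% higher and 0.379% lower in DJB). The groups did not overlap for 3 of the 7, Atp2b1 and Cyp24a1 higher and S100g lower, where they did not overlap for 21.1% of all genes (14.5% higher and 6.56% lower in DJB). The median difference of the members was -0.10, against 0.05 over all genes tested. Leaving S100g aside, the member differences ran from -0.26 to 0.27, which is close to the 5th and 95th percentiles of all genes, -0.26 and 0.34.

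**Figure D2:**
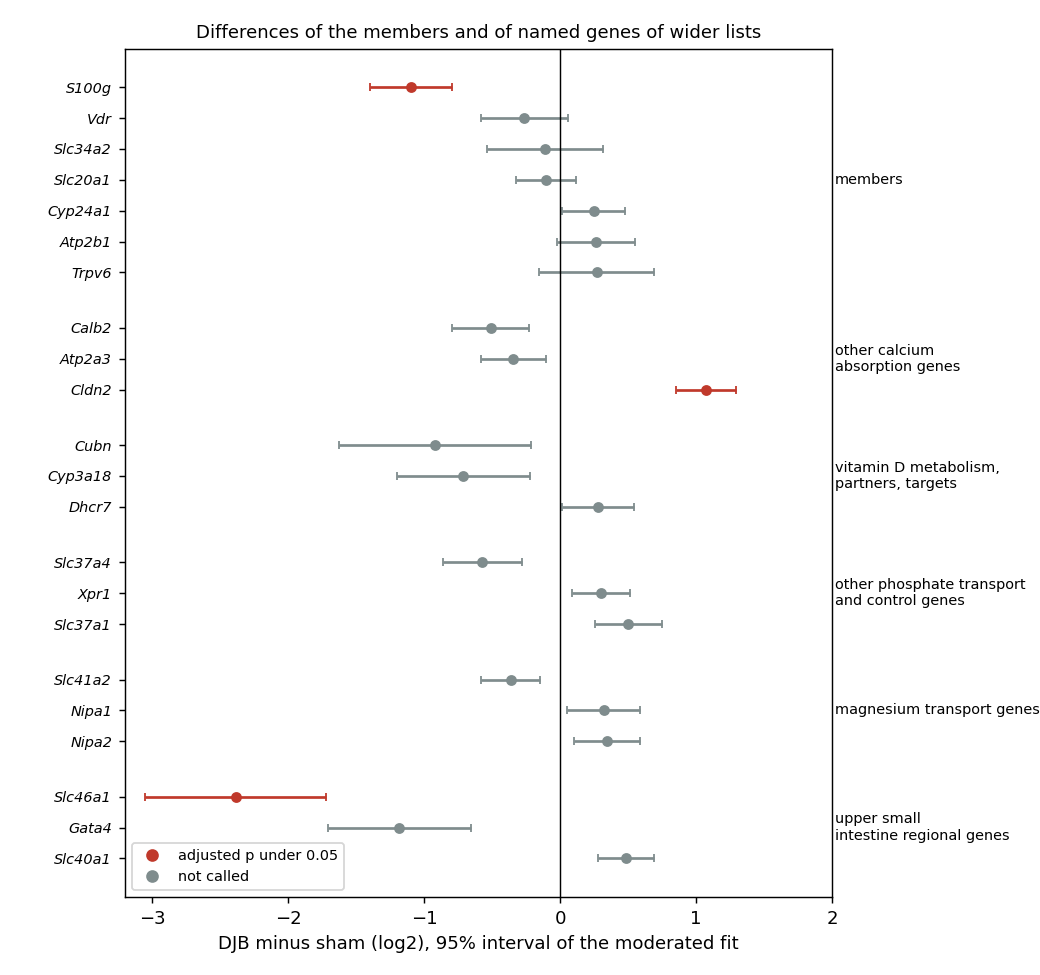
DJB minus sham differences on the log2 scale with 95% intervals of the limma fit, for the members and for the genes named from each wider list, with genes of adjusted p under 0.05 in red. S100g at -1.10, Cldn2 at 1.07 and Slc46a1 at -2.38 are the genes past the threshold.

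The route between cells was represented by claudins in the list of other calcium genes. Cldn2, which forms pores for sodium, calcium and water, had levels of 10.50, 10.49 and 10.63 in the DJB rats, against 9.39, 9.58 and 9.44 in the sham rats. Every DJB value lay at least 0.91 above every sham value, and the spread within a group was small, with means of 10.54 ± 0.08 in DJB and 9.47 ± 0.10 in sham (SD, n = 3 each). The difference of 1.07 ± 0.10 (SE, limma adjusted p = 0.00160) passed with any 1 array left out, at an adjusted p of 0.0162 or less. Cldn15, the other pore-forming claudin of the small intestine, differed by -0.16 ± 0.11 (adjusted p = 0.537), and Cldn12, which mouse work ties to calcium absorption, by -0.01 ± 0.13 (adjusted p = 0.975). The differences of Cldn2 and S100g, 1.07 and -1.10, are of like size and opposite sign in the same 6 rats. Cldn2 was set beside S100g as the only gene of its list past the threshold, and a link between these genes was not tested.

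Of the 28 other calcium genes measured out of 30 listed, 1 rose, 0 fell and 27 did not pass, where 0.772% of all genes passed. The median difference was -0.01. The 3 lowest p-values belonged to Cldn2, Calb2 and Atp2a3. Calb2, the calretinin gene and a calcium-binding relative of the calbindins, had levels of 5.81, 5.84 and 5.63 in the DJB rats, against 6.34, 6.04 and 6.44 in the sham rats. Its groups did not overlap, and the difference of -0.51 ± 0.13 (SE) did not pass (limma adjusted p = 0.129). All its values except those of sham 1 and sham 3 lay under the median of all rows. Atp2a3, which encodes the SERCA3 pump that fills internal calcium stores, differed by -0.34 ± 0.11 (SE, limma adjusted p = 0.199). Calb1, the gene of the larger calbindin-D28k, and Trpv5, the renal relative of Trpv6, were both dim in all rats. They differed by 0.24 ± 0.13 and 0.45 ± 0.17 (limma adjusted p = 0.434 and 0.280). Among the other plasma membrane pump genes, Atp2b4 differed by 0.19 ± 0.13 (adjusted p = 0.573).

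Vitamin D genes gave no call. Of 26 measured out of 28 listed, 0 rose and 0 fell, where 0.772% of all genes tested passed. An unadjusted p under 0.05 was found for 3, where 14.3% of all genes had one. The median difference was -0.04. Cyp3a18, a steroid-metabolising cytochrome of the family that also handles vitamin D, had levels of 9.96, 9.50 and 9.17 in the DJB rats, against 9.88, 10.36 and 10.52 in the sham rats. Its groups overlapped only through DJB 1 and sham 1, and the difference was -0.71 ± 0.22 (SE, limma adjusted p = 0.191). Cubn, the cubilin gene, an uptake receptor for intrinsic factor with vitamin B12 in the ileum and for the vitamin D binding protein in the kidney, differed by -0.92 ± 0.31 (SE, limma adjusted p = 0.238). Dhcr7, whose enzyme uses 7-dehydrocholesterol for cholesterol and so draws on the vitamin D precursor, differed by 0.28 ± 0.12 (SE, limma adjusted p = 0.322). Rxra, the partner receptor of VDR, differed by -0.14 ± 0.10, and Cyp27b1, whose enzyme makes the active hormone, by 0.06 ± 0.09 (adjusted p = 0.577 and 0.820). Cyp27b1 was dim in all rats.

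**Figure D3:**
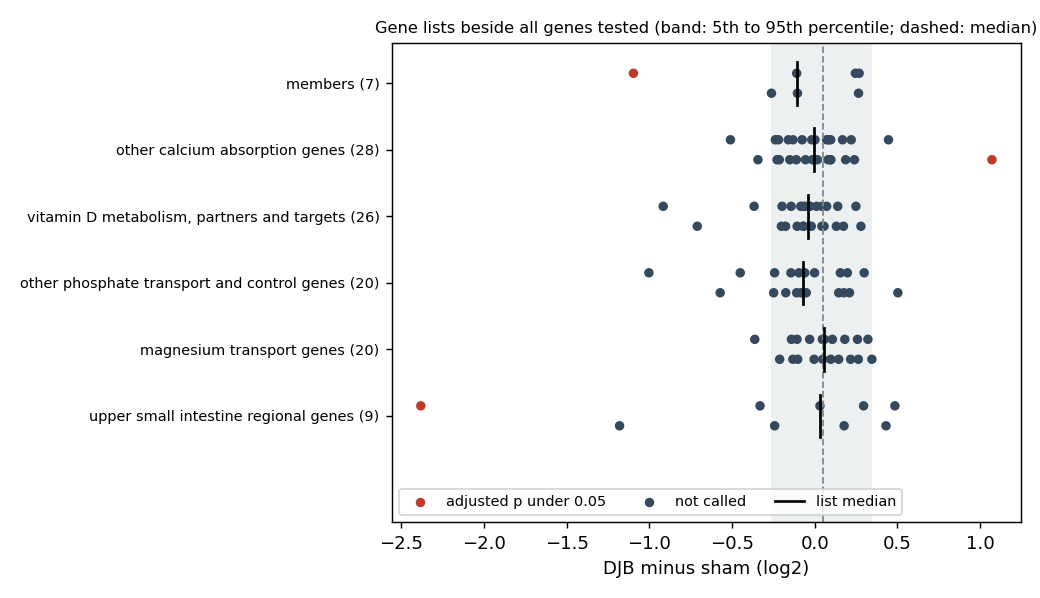
DJB minus sham differences on the log2 scale for each gene of the members and of the 5 wider lists, with the number measured in brackets, the list median as a bar, and genes of adjusted p under 0.05 in red. The grey band holds the 5th to 95th percentile of all genes tested, -0.26 to 0.34, and most genes of the lists lie within it.

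Of 20 other phosphate genes measured out of 23, 0 rose and 0 fell, where 0.772% of all genes tested passed. An unadjusted p under 0.05 was found for 5, where 14.3% of all genes had one. The groups did not overlap for 7, where 21.1% of all genes had groups that did not overlap. The lowest p was that of Slc37a1, which encodes an exchanger of glucose 6-phosphate for phosphate in internal membranes. Its levels were 8.99, 9.19 and 8.96 in the DJB rats, against 8.42, 8.69 and 8.52 in the sham rats, a difference of 0.50 ± 0.11 (SE, limma adjusted p = 0.0953). Its relative Slc37a4 lay the other way at -0.57 ± 0.13 (SE, limma adjusted p = 0.103). Both passed when dim genes were left out (adjusted p = 0.0418 and 0.0489) and with a prior that follows intensity (adjusted p = 0.0238 and 0.0271). These were 2 of 8 alternative settings that kept all arrays. Neither gene passed with any 1 array left out (limma adjusted p up to 0.265 and 0.285).

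Xpr1, which encodes the exporter through which phosphate leaves cells, had levels of 8.0, 7.95 and 7.91 in the DJB rats, against 7.65, 7.56 and 7.75 in the sham rats. The groups did not overlap, and the difference of 0.30 ± 0.09 (SE) did not pass (limma adjusted p = 0.207). The other sodium-phosphate carriers differed by 0.21 ± 0.10 for Slc34a1, 0.16 ± 0.11 for Slc34a3 and by less than 0.01 for Slc20a2 (adjusted p = 0.392 or more). Slc34a1 and Slc34a3 were dim in all rats. Slc9a3, the brush border sodium-proton exchanger, spread widely, with 8.68, 7.80 and 6.83 in the DJB rats, against 9.35, 8.80 and 8.16 in the sham rats. Its difference of -1.0 ± 0.43 (SE) was smaller than the range within the DJB group and did not pass (limma adjusted p = 0.338).

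Magnesium genes were measured for 20 of 24 listed, and 0 rose and 0 fell, where 0.772% of all genes tested passed. Slc41a2, a magnesium transporter gene, had the lowest p, with 8.90, 8.89 and 8.97 in the DJB rats, against 9.19, 9.26 and 9.40 in the sham rats. Its groups did not overlap, and the difference was -0.36 ± 0.10 (SE, limma adjusted p = 0.152). Nipa2 and Nipa1, which encode magnesium transporters of another family, differed by 0.35 ± 0.11 and 0.32 ± 0.12 (adjusted p = 0.200 and 0.265). Trpm7, the ubiquitous relative of Trpm6, differed by -0.10 ± 0.09 (adjusted p = 0.660).

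S100g is more abundant in the upper than in the lower small intestine of rodents. It was therefore also set beside genes of the upper gut, 9 measured out of 12 listed. Of the 9 measured, 0 rose and 1 fell, the folate carrier gene Slc46a1, where 0.772% of all genes passed. The directions were mixed, with 4 lower and 5 higher. An unadjusted p under 0.05 was found for 7 of the 9, where 14.3% of all genes had one. The groups did not overlap for 7 of the 9, 4 lower and 3 higher in DJB. Over all genes this held for 21.1%, with 6.56% lower and 14.5% higher in DJB. Slc46a1 differed by -2.38 ± 0.29 (SE, limma adjusted p = 0.00986), a call that ended without DJB 2 or sham 3 (adjusted p = 0.0519 and 0.0576) and with a robust prior that follows intensity (adjusted p = 0.0561). Gata4, a transcription factor gene of the upper gut, differed by -1.18 ± 0.23, and Slc40a1, the iron exporter gene, by 0.49 ± 0.09 (SE, limma adjusted p = 0.0643 and 0.0530).

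The 3 genes whose profile over the 6 arrays lay nearest to that of S100g were Prss35, Fmo4 and Acot12. Likeness was measured as the root mean square distance between log2 values, each gene centred on its own mean, and it was 0.089 for Prss35, 0.123 for Fmo4 and 0.144 for Acot12. Prss35 encodes a protein of the serine protease family. Its levels were 6.61, 6.60 and 6.86 in the DJB rats, against 7.66, 7.63 and 8.25 in the sham rats, and as with S100g the highest rat of each group was number 3. Fmo4, a flavin-containing monooxygenase gene, averaged 7.67 ± 0.05 in DJB and 8.71 ± 0.10 in sham, and Acot12, an acetyl-CoA hydrolase gene, 8.76 ± 0.05 in DJB and 9.85 ± 0.41 in sham (SD, n = 3 each). These genes were chosen for that pattern, and their values are a description.

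**Figure D4:**
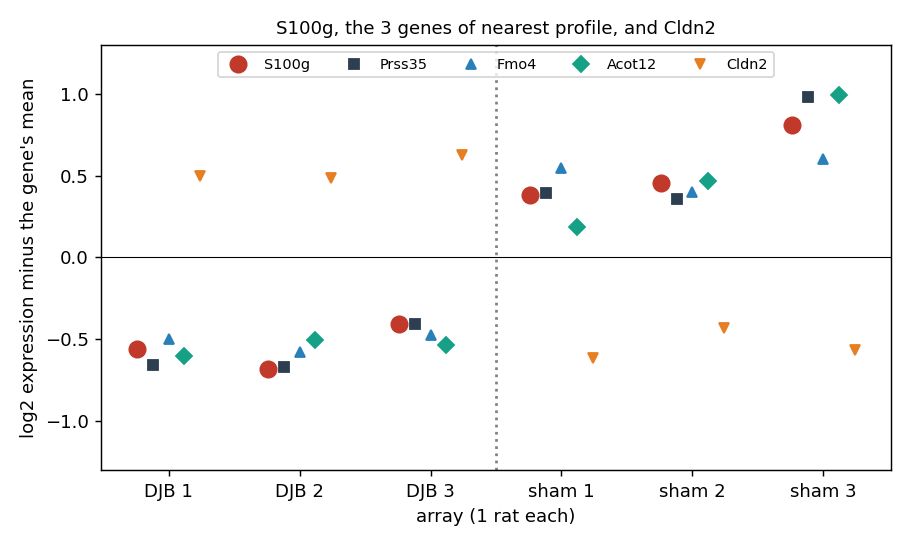
Log2 expression of S100g, of the 3 genes of nearest profile and of Cldn2 on each array, each gene centred on its own mean, with the DJB rats left of the dotted line and the sham rats right of it. S100g, Prss35, Fmo4 and Acot12 lie under 0 in every DJB rat and over 0 in every sham rat, and Cldn2 lies the other way round.

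The tissue carried the markers of ileal enterocytes, with Fabp6 at 13.81 to 13.97 in DJB and 13.44 to 13.67 in sham. All 3 ileal markers were higher in every DJB rat than in every sham rat, where this held for 14.5% of all genes tested. The mean level of these markers per rat was 12.78 to 13.02 in DJB and 11.79 to 12.28 in sham. Of these, Slc10a2, the bile acid carrier gene, rose (1.73 ± 0.22, SE, limma adjusted p = 0.0106), and Fabp6 and Slc51a differed by 0.30 ± 0.10 and 0.37 ± 0.13 and did not pass. The part of these ileal markers in the S100g fall and the Cldn2 rise was not tested. Of 8 general enterocyte markers 0 rose and 0 fell, where 0.772% of all genes tested passed. The mean level of these enterocyte markers per rat was 12.29 to 12.45 in DJB and 12.25 to 12.59 in sham. With each array centred on 7 of these markers, leaving out the widely spread Alpi, the S100g difference was -1.13 (adjusted p = 0.00171) and that of Cldn2 1.04 (adjusted p = 0.00113). In bulk tissue, fewer cells of a type and less RNA per cell cannot be told apart. Among other cell types, the mean of 2 colonocyte markers per rat was 8.30 to 9.57 in DJB and 7.29 to 7.81 in sham, led by Car1 at 6.04 to 8.56 in DJB and 4.40 to 4.99 in sham (difference 2.58, adjusted p = 0.0658). The mean of 2 red cell markers was 6.32 to 7.08 in DJB and 7.01 to 7.42 in sham, and that of 3 B cell markers 4.94 to 6.86 in DJB and 5.90 to 7.05 in sham. For 5 smooth muscle markers it was 10.68 to 10.95 in DJB and 10.35 to 10.86 in sham, for 3 neuron and glia markers 5.49 to 5.77 in DJB and 5.47 to 5.91 in sham, and for 5 pancreas markers 4.94 to 5.08 in DJB and 4.77 to 5.25 in sham. The colonocyte, red cell, B cell, smooth muscle, neuron and glia, and pancreas lists held no called gene, and their part in the falls and rises above was not tested. Array medians ran from 6.08 to 6.19, the highest being DJB 1, and precision is set by having 3 arrays per group.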

How the data were processed

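The deposited table holds log2 expression values for 29214 rows on 6 arrays. Per the submitters' processing notes the authors used RMA, which corrects background, quantile normalises and summarises probes, which hides shifts common to most genes and shrinks the folds of dim rows. The deposited log2 values were used unchanged. Rows with 1 symbol in the platform annotation (15310) were kept, taking per gene the row of highest mean, and those with several (323) or no symbol (13581) were dropped. No genome build is given for the rows in the sources used here.

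DJB minus sham was fitted with limma 3.58.1 in R 4.3.3 (lmFit and eBayes, no covariate, no filter on dim genes), two-sided, with Benjamini-Hochberg adjustment over 14506 genes. Intervals are 95% intervals of that fit. The fit was also run on simulated data with known differences, a run that did not check how often the intervals hold the true value. The rats are numbered as separate animals. Figures used matplotlib 3.10.9.

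The members and lists were chosen with earlier results of these data known. Named were all members, list genes past the threshold, the 3 of lowest p per list and the 3 nearest profiles. Other genes given with values were chosen after these were seen. Nothing in the labels says that the numbers pair rats, so they were not taken as pairs. The correlations of deviations across genes for same-numbered rats were 0.005, -0.12 and -0.15. With 3 rats per group these cannot show whether rats were paired. Alternatives were other scalings, a filter on dim genes, an intensity-trended robust prior, other row choices, the replicate block and each array left out.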

Additional observations from a re-analysis of the deposited data

How the results depend on the processing

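S100g was lower and past the threshold under every alternative run, with differences of -0.97 to -1.18 when 1 array was left out. The other 6 members passed under none. Leave-one-out differences ran from 0.12 to 0.46 for Trpv6, 0.14 to 0.33 for Atp2b1, -0.385 to -0.15 for Vdr, 0.18 to 0.30 for Cyp24a1, -0.31 to 0.052 for Slc34a2, which is positive without DJB 2 (0.031) or sham 2 (0.052), and -0.16 to -0.05 for Slc20a1. The count of members called stayed at 1 throughout. The count of all genes called, 112, was 225 with dim genes left out, 313 with an intensity-trended robust prior, 50 with the replicate number as a block, and 33 to 108 with 1 array left out. The causes of these shifts were not tested. In the block fit, S100g had an adjusted p of 0.0215, and Acot12 was no longer called (adjusted p = 0.0554). Acot12 was also not called with all rows tested (adjusted p = 0.0732) or when sham 2 or a DJB array was dropped (up to 0.106), and Prss35 was not called without DJB 1 or DJB 2 (up to 0.103). Gata4 passed with arrays centred on their median, on enterocyte markers, without dim genes or without DJB 1, and Slc40a1 without dim genes or with the robust prior. Trpv6, Cyp24a1 and Slc34a2 are dim and have no value in the fit without dim genes. The centring on enterocyte markers was chosen after seeing the data.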

Other observations

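The protein families around the members, grouped by symbol after the values were seen, held few called genes. Over all genes tested, 0.772% passed. Of 14 S100 genes measured, 0 rose and 1 fell, S100g itself, and the remaining differences reached at most 0.37, for S100a3. The S100 gene S100a10, whose product helps carry TRPV6 to the cell surface, had levels of 12.44, 12.60 and 12.45 in the DJB rats, against 12.19, 12.37 and 12.27 in the sham rats, a difference of 0.22 ± 0.10 (SE) that did not pass (limma adjusted p = 0.350). Of 24 claudin genes, 1 rose and 0 fell, Cldn2, and the family's median difference was 0.04.

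Among 20 Trp channel genes, 0 rose and 0 fell. The lowest p was that of Trpv2, a calcium-permeable channel gene of macrophages and neurons, with 7.48, 7.37 and 7.45 in the DJB rats, against 7.05, 7.12 and 7.02 in the sham rats. Its groups did not overlap, and the difference was 0.37 ± 0.09 (SE, limma adjusted p = 0.126).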
